A study of Mus musculus with 12 samples.

Results

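The genes described here are 44 genes of the cell cycle and DNA replication, 21 of S phase and 23 of mitosis, which were found by symbol among the 24421 entries of a table of bone marrow expression in mice. All 44 were matched and all passed the filter on low values, which 11767 entries passed. The 12 marrow samples, all of C57BL/6 mice, form 4 groups of 3: aged mice given a traumatic brain injury (Aged-TBI), aged controls (Aged-CON), young mice given the injury (Young-TBI) and young controls (Young-CON). Marrow was collected on day 3 after the injury, which the study's design describes as the height of the response in blood formation. The labels used here state no age in months, no sex, no injury model and no sham procedure. Nor do they tie each sample to its own animal, and the p-values below therefore measure sample-to-sample spread that may be technical. Levels are in FPKM, a fragment count divided by transcript length and by the size of the library. In bulk marrow, fewer cells of a type and less RNA per cell cannot be told apart.

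A dividing cell copies its DNA in S phase and separates the copies in mitosis. Before S phase the MCM helicase is loaded at origins with the help of Cdc6 and Cdt1, cyclin E and the E2F factors drive the step into S phase, and ribonucleotide reductase, thymidylate synthase and thymidine kinase supply the nucleotides. In mitosis, Cdk1 with cyclin B, Plk1 and the Aurora kinases build and control the spindle, and the anaphase-promoting complex with Cdc20 and Ube2c ends it by marking cyclin B and securin for degradation. In marrow, early erythroid cells, B cell progenitors and granulocyte progenitors divide, while mature neutrophils do not, so the RNA of these genes in whole marrow comes from the dividing cells of several lineages.

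Promoters of S phase genes are known for sites of the E2F factors, and promoters of mitotic genes for the cell cycle homology region (CHR), often with CCAAT boxes bound by NF-Y. A window of 300 bases that spans the transcription start was available from RefSeq on GRCm38.p6 for 37 of the 44 genes. An E2F match was TTCCCGC or, as a variant in other promoters, TTGGCGC. A CHR match was TTTGAA or, as a variant of the same element, TTTAAA. The CCAAT box was searched by its 5 letters, and each motif was read on both strands. The E2F motif was in 10 of 18 promoters of S phase genes (55.6%) and in 3 of 19 promoters of mitosis genes (15.8%), beside 12.7% of the 8857 promoters of tested genes and 6.93% of all 27025 promoters. The CHR was in 7 of 18 S phase promoters (38.9%) and 17 of 19 mitosis promoters (89.5%), beside 19.2% of the promoters of tested genes and 27.8% of all promoters. CCAAT was in 12 of 18 (66.7%) and 17 of 19 (89.5%), beside 39.0% and 37.9%. The promoters below are those with the steepest and the shallowest relation to the erythroid genes, described further on, among S phase genes with an E2F match (Cdc6 and Chaf1a) and among mitosis genes with both a CHR and a CCAAT match (Ube2c and Kif23). Each is written 5′ to 3′ on the strand of its gene, with the matches in capitals.
Cdc6: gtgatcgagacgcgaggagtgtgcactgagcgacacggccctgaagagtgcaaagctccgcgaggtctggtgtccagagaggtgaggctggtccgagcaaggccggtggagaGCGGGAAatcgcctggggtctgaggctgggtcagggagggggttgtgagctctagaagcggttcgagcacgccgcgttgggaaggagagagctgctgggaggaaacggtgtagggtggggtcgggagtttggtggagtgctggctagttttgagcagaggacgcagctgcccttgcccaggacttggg
Chaf1a: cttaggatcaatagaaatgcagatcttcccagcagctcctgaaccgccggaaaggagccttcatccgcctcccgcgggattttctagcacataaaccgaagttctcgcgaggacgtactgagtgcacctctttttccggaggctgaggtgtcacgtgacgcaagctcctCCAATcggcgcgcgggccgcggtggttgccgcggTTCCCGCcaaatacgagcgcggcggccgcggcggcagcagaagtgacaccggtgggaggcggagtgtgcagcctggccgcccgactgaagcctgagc
Ube2c: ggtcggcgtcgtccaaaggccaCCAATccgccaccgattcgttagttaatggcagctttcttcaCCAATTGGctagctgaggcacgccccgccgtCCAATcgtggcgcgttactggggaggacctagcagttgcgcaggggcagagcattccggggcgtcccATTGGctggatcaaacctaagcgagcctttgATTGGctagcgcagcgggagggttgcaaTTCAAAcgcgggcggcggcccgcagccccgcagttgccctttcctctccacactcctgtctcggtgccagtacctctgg
Kif23: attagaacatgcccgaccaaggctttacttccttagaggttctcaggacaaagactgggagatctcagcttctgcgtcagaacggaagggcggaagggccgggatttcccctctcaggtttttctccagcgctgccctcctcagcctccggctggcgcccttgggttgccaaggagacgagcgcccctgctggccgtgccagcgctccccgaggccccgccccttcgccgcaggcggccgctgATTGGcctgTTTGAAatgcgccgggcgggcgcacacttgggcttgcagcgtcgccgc
The Cdc6 window lies at chr11:98907901-98908200 on the plus strand and holds an E2F match, on the opposite strand, that starts at position -138 from the transcription start. The Chaf1a window lies at chr17:56040166-56040465 on the plus strand and holds an E2F match and a CCAAT match. The Ube2c window lies at chr2:164769679-164769978 on the plus strand and holds 1 CHR match and 6 CCAAT matches, of which a pair on opposite strands overlap. The Kif23 window lies at chr9:61946750-61947049 on the minus strand, with both of its matches close to the start site. These are matches of letters, not sites shown to be bound.

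In units of 1e+06 fragments, the depth recovered from the FPKM steps was 12.282 to 15.85 per sample, and every one of the 44 genes gave whole fragments within a tolerance of 0.05, with 240 to 42528 fragments per gene and sample. The bodies of 12 of the 44 overlap a second tested gene, which for 11 lies on the opposite strand (among them Ube2c with Tnnc2, Nusap1 with Oip5, Tk1 with Afmid and Cdc20 with Elovl1), and whether counting used strand is not given in the sources used here. Pcna, Tyms, Ccnb1 and Ccnb2 have named pseudogenes, so their values may include fragments of the copies.

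Across the 12 samples the 44 genes shared nearly the same order of samples. The mean of log2(FPKM + 1) over the 44 genes was 6.17, 6.21 and 6.19 in Aged-TBI, against 6.12, 5.65 and 5.65 in Aged-CON, and 6.09, 6.07 and 5.93 in Young-TBI, against 6.00, 5.66 and 5.91 in Young-CON. In all 44 genes the 3 lowest of the 12 samples were Aged-CON 2, Aged-CON 3 and Young-CON 2. Aged-CON 1 lay above Aged-CON 2 and 3, and Young-CON 2 lay below Young-CON 1 and 3, in all 44 genes as well. The highest sample was Aged-TBI 2 for 19 genes, Aged-TBI 3 for 14, Young-TBI 1 for 4, Aged-TBI 1 for 3, Aged-CON 1 for 3 and Young-TBI 2 for 1.

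**Figure D1:**
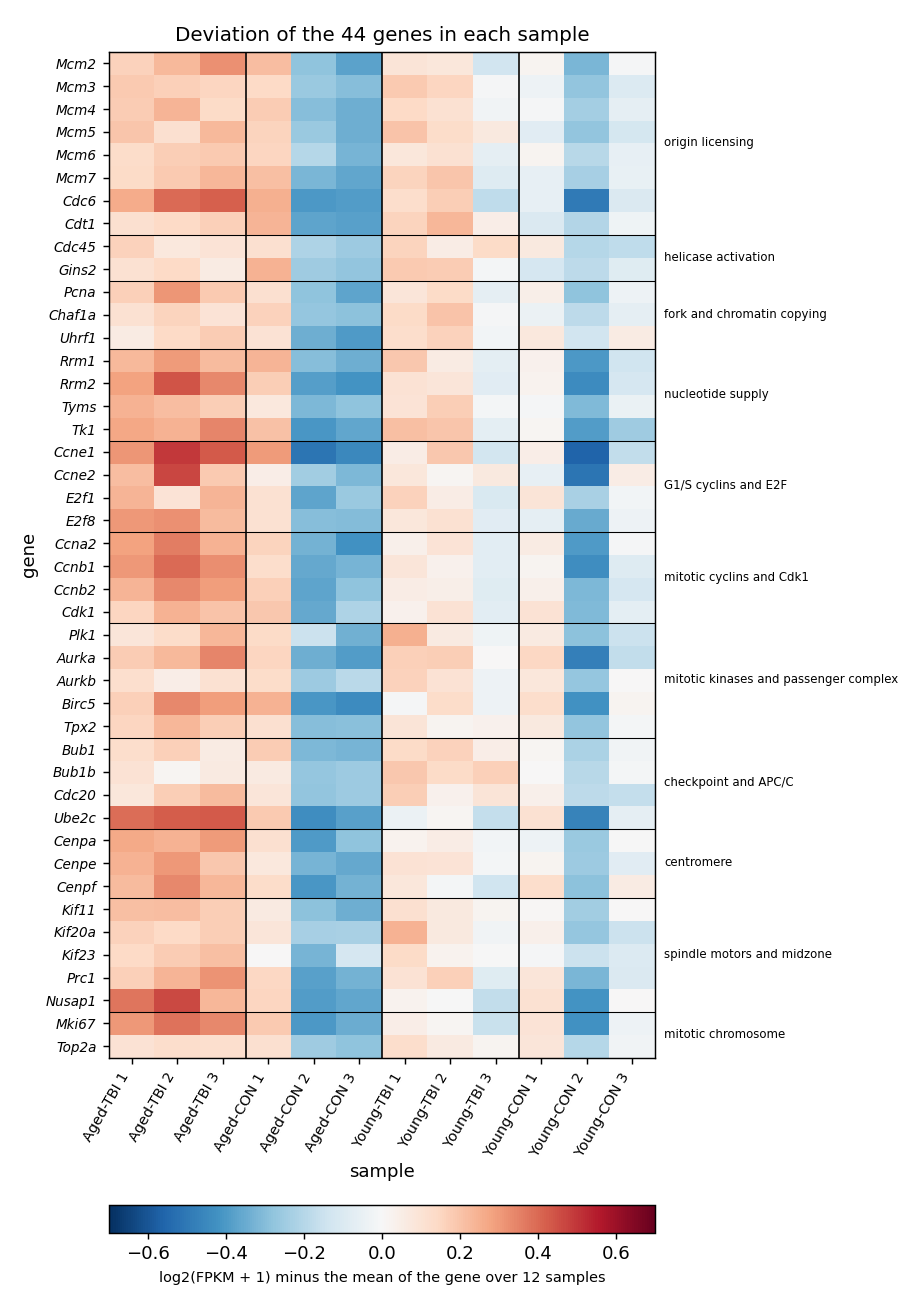
Deviation of log2(FPKM + 1) in each of the 12 samples (columns) from the mean of the gene over all samples, for the 44 genes (rows, by role), with red above and blue below the mean. The columns of Aged-CON 2, Aged-CON 3 and Young-CON 2 are blue in all 44 rows.

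The ratio of the highest to the lowest sample ran from 1.33 (Top2a) to 2.13 (Ccne2), with a median of 1.55, so no gene of the set was silent or changed by several-fold. Over the 946 pairs of genes, Pearson's r across the 12 samples had a median of 0.917 and ran from 0.629 to 0.994, and 890 pairs were over 0.8. Bub1b (0.813), Cdc45 (0.875) and Gins2 (0.879) followed the mean of the other genes least, and Rrm2 (0.986) and Pcna (0.984) most closely. All of these are descriptions across samples that share libraries and groups. The S phase and mitosis genes stayed in step: the S phase mean minus the mitosis mean lay between -0.29 and -0.17 log2 units in all 12 samples, and averaged -0.23 ± 0.0018 in Aged-TBI, -0.22 ± 0.04 in Aged-CON, -0.20 ± 0.03 in Young-TBI and -0.25 ± 0.04 in Young-CON (SD, n = 3 each).

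In aged marrow all 44 genes were higher after injury on average, with a median log2 difference of 0.38 (0.19 to 0.63), and none was called by limma at an adjusted p under 0.05. The mitosis genes had a median of 0.43 and the S phase genes of 0.36, beside -0.02 for all 11767 tested genes, of which 5322 were positive. The called share of all tested genes in this comparison was 0.323%. The smallest adjusted p-values of the set from limma were 0.0999 for Cenpe, 0.103 for Cenpa and 0.103 for Kif23, and the largest was 0.338. At an unadjusted p under 0.05, 41 of the 44 genes were higher and 0 lower, beside 1269 higher and 1541 lower of all tested genes. In 24 of the 44 genes every Aged-TBI sample lay above every Aged-CON sample, 15 of the 23 mitosis genes and 9 of the 21 S phase genes, beside 9.19% of all tested genes.

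The outcome in aged marrow turned on the library Aged-CON 1. In all 44 genes every Aged-TBI sample lay above Aged-CON 2 and 3. Without Aged-CON 1, all 44 genes were called higher in Aged-TBI, where 14.9% of all tested genes were called higher, and the medians were 0.51 for S phase and 0.59 for mitosis genes. Aged-CON 1 was the highest aged control in all 44 genes, so leaving it out raises the difference by construction. That library had the lowest weight of the 12 when limma weighted samples by their agreement with the group (0.206). With these weights all 44 genes were called higher, where 15.5% of all tested genes were. The weights come from these same values, so the weighted fit comes close to leaving Aged-CON 1 out and adds no separate support. All 25 genes of an erythroid list were also higher on average in Aged-TBI, by a median of 0.85, with 0 called by limma and 23 at an unadjusted p under 0.05. The mean of log2(FPKM + 1) over these genes was 7.60, 7.71 and 7.71 in Aged-TBI, against 7.42, 6.57 and 6.52 in Aged-CON. The mean of 16 mature neutrophil genes was 8.10, 8.23 and 8.09 in Aged-TBI, against 8.23, 8.81 and 8.79 in Aged-CON. Of 10 megakaryocyte and platelet genes 1 was positive in aged marrow, around a median of -0.32, and of 13 monocyte and macrophage genes 2, around -0.31, with 0 called by limma in either list (0 and 7 lower before adjustment, at p under 0.05). With the erythroid mean as a covariate in the fit, the median difference with injury was 0.01 for S phase and 0.05 for mitosis genes, 30 of the 44 were positive, and limma called 0, with 0 at an unadjusted p under 0.05. The erythroid means of the injured and control samples did not overlap, so the adjusted difference rests on the fitted slope. A fit with the mature neutrophil mean as the covariate was also run, chosen after seeing the data, and its medians for aged marrow are not given here. The part of the remaining cell types in this comparison was not tested.

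In young marrow all 44 genes were higher after injury on average as well, by a smaller median of 0.18 (0.01 to 0.32), and limma called none, where 5.15% of all tested genes were called. Here the S phase genes had the higher median, 0.21 against 0.14 for the mitosis genes, beside -0.02 for all tested genes, of which 5238 were positive. Without Young-CON 2 these medians were 0.11 for S phase and 0.04 for mitosis genes, and 37 of the 44 were positive. At an unadjusted p under 0.05, Bub1b, Mcm5 and Mcm3 were higher and 0 of the 44 were lower. Of all 11767 tested genes, 1026 were higher and 1343 lower at that threshold. The adjusted p-values from limma of Bub1b, Mcm5 and Mcm3 were 0.164, 0.168 and 0.241. In 9 of the 44 genes (Mcm3, Mcm5, Cdt1, Gins2, Chaf1a, Bub1, Bub1b, Kif11 and Kif23) every Young-TBI sample lay above every Young-CON sample, beside 12.9% of all tested genes. The erythroid means of the groups overlapped in this comparison, at 6.86, 6.90 and 6.46 in Young-TBI, against 7.22, 6.27 and 7.06 in Young-CON. The mean of primary granule genes of neutrophil progenitors was 7.54, 7.26 and 7.54 in Young-TBI, against 6.65, 6.79 and 6.64 in Young-CON. All 11 were higher on average and limma called 9 of them higher, where 235 of all 11767 tested genes were called higher. B cell progenitor genes were lower, at 3.68, 4.06 and 3.83 in Young-TBI, against 4.57, 4.81 and 5.06 in Young-CON. Of these 18 genes 0 were positive and limma called 13 lower, where 371 of all 11767 tested genes were called lower. Of 9 mature B and plasma cell genes limma called 6 lower and 2 were positive, around a median of -1.17. Of 11 markers of T and natural killer cells it called 5 lower and 0 were positive, around a median of -0.60. All 10 megakaryocyte and platelet genes lay higher in every Young-TBI sample than in every Young-CON sample, by a median of 0.74, with 0 called by limma and 3 higher before adjustment (p under 0.05). The part of these lists in the cell cycle genes' values was not tested.

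When the erythroid mean of each sample was added to the fit, 27 of the 44 genes were called higher in Young-TBI than in Young-CON, 15 of 21 S phase and 12 of 23 mitosis genes, where 5.28% of all tested genes were called higher. The median difference at an equal erythroid mean was 0.25 for S phase and 0.18 for mitosis genes, and all 44 were positive. Tk1, thymidine kinase, was higher by 0.38 ± 0.07 (log2, SE) with an adjusted p from limma of 0.00848, Ccne1 by 0.35 ± 0.07 (0.0103), Aurka by 0.34 ± 0.06 (0.00701), Mcm5 by 0.33 ± 0.06 (0.009) and Cdc6 by 0.33 ± 0.06 (0.00759). The call rested on 2 libraries: in fits chosen after seeing the data it was 33 genes without Aged-CON 1 (5.84% of all tested genes called higher), 17 without Young-CON 2 (1.54%) and 0 without both (0%). With the mean of the mature neutrophil genes as the covariate in its place, also chosen after seeing the data, 0 were called and the medians were 0.02 for S phase and -0.02 for mitosis genes.

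**Figure D2:**
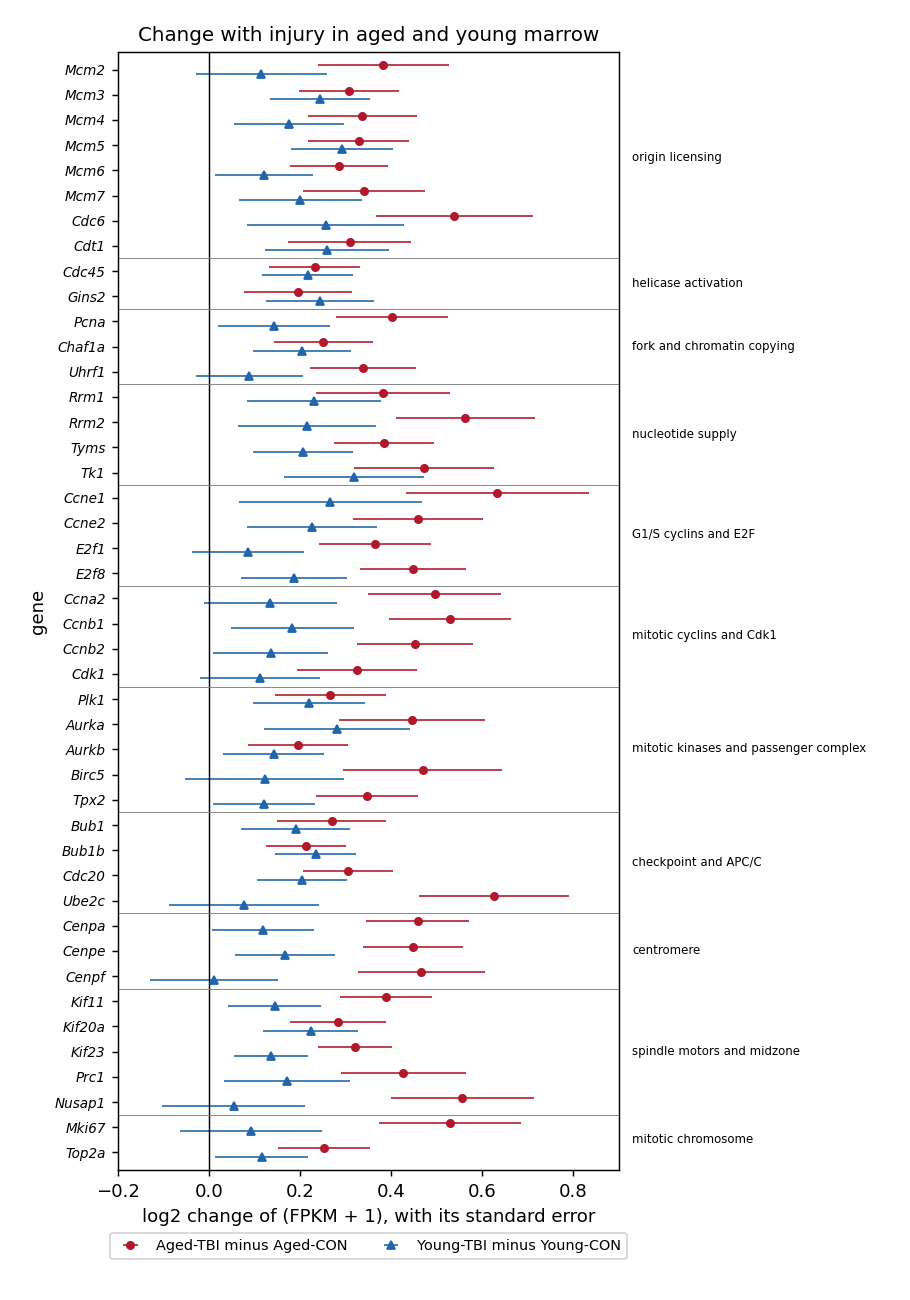
Log2 change of FPKM + 1 with injury for each of the 44 genes (rows, by role), with its standard error from the fit, for Aged-TBI minus Aged-CON (red circles) and Young-TBI minus Young-CON (blue triangles). All points lie above 0, between 0.19 and 0.63 in aged and between 0.01 and 0.32 in young marrow, and no gene was called in either comparison.

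The change with injury was larger in aged than in young marrow for 42 of the 44 genes, with a median of the aged minus the young change of 0.22 (-0.05 to 0.55), but no gene was called in the test of that difference, where 0.195% of all tested genes were called. Ube2c, Cenpf and Nusap1 had the smallest adjusted p-values from limma (0.221, 0.23 and 0.237) and were the 3 genes at an unadjusted p under 0.05. Of all 11767 tested genes, 1126 lay above 0 and 1230 below 0 at that threshold. For Ube2c the difference between the ages was 0.55 ± 0.23, with a change of 0.63 ± 0.16 in aged and 0.08 ± 0.16 in young marrow (log2, SE). Without Aged-CON 1, all 44 were positive and 14 were called, where 9.09% of all tested genes were called above 0, and the medians were 0.34 for S phase and 0.37 for mitosis genes, against 0.16 and 0.24 with it. Aged-CON 1 was the highest aged control in all 44 genes, so leaving it out raises this difference by construction and adds no separate support. With the erythroid covariate the sign turned: the median was -0.19, 2 of the 44 were positive, limma called 0, and 20 lay below 0 before adjustment (p under 0.05). Of all 11767 tested genes, 855 lay below 0 and 606 above 0 at that threshold in this fit. The erythroid means of Aged-TBI lay above those of every other group, so this adjusted difference rests on the fitted slope.

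Between aged and young mice without injury, with all libraries in the fit, the median of Aged-CON minus Young-CON was -0.05 (-0.21 to 0.04), the same as that of all tested genes, and 9 of the 44 were positive. No gene was called by limma and 0 were at an unadjusted p under 0.05, where 4.98% of all tested genes were called. Uhrf1 had the smallest adjusted p (0.354) at -0.21 ± 0.12, and Cenpf (-0.17 ± 0.14, adjusted p 0.566) and Kif11 (-0.11 ± 0.10, adjusted p 0.609) followed. In both groups 1 library stood apart, Aged-CON 1 above and Young-CON 2 below the others. Without Aged-CON 1 all 44 were lower in Aged-CON on average (-0.37 to -0.10), with medians of -0.18 for S phase and -0.22 for mitosis genes, and limma called 2 lower, where 9.22% of all tested genes were called lower. These were Uhrf1 (-0.37, adjusted p from limma 0.0126) and Cdt1 (-0.26, adjusted p 0.0294). Without Young-CON 2 the medians were -0.11 and -0.17, and 0 were called. Without both, 35 of the 44 were called lower in Aged-CON (15.2% of all tested genes), and the medians were -0.28 and -0.31. In all 44 genes Aged-CON 1 was the highest aged control and Young-CON 2 the lowest young control. Leaving out either library therefore lowers the difference by construction, and these fits are no separate support. With the mature neutrophil mean as a covariate, chosen after seeing the data, 8 were called higher (1.91% of all tested genes).

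After injury, 40 of the 44 genes were higher in aged than in young mice, by a median of 0.15 (-0.11 to 0.48), beside -0.05 for all tested genes, and 0 were called by limma, where 9.9% of all tested genes were called. In 25 genes every Aged-TBI sample lay above every Young-TBI sample (13.4% of all tested genes), and in Bub1b every Aged-TBI sample lay below (26.6%). Ube2c (0.48 ± 0.16), Nusap1 (0.41 ± 0.16) and Ccnb1 (0.33 ± 0.13) had the smallest adjusted p-values from limma, at 0.0836, 0.117 and 0.135. At an unadjusted p under 0.05, 6 mitosis genes and 0 S phase genes were higher, beside 1073 higher and 2287 lower of all 11767 tested genes. In a fit of these 6 samples alone, 12 of the 44 were called higher in Aged-TBI, where 7.49% of all tested genes were. The erythroid mean differed widely between these groups, at 7.60, 7.71 and 7.71 in Aged-TBI, against 6.86, 6.90 and 6.46 in Young-TBI. All 10 megakaryocyte and platelet genes were lower on average in Aged-TBI, by a median of -0.91, with 0 called by limma and 8 lower before adjustment (p under 0.05). With the erythroid mean as a covariate the sign turned: none of the 44 was positive, and the medians were -0.27 for S phase and -0.21 for mitosis genes. In this fit 1 mitosis gene, Aurkb, was called lower in Aged-TBI (adjusted p from limma 0.043), where 78 of all 11767 tested genes were called lower.

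Among the genes of origin licensing, Mcm5, a subunit of the MCM helicase, measured 103, 97.5 and 106 FPKM in Aged-TBI, against 100.4, 75.1 and 70.7 FPKM in Aged-CON, and 104, 98.5 and 94.3 FPKM in Young-TBI, against 85.05, 74.1 and 82.7 FPKM in Young-CON. Its 3 Young-TBI values lay above the 3 Young-CON values, while Aged-CON 1 lay within the range of Aged-TBI. Mcm5 averaged 102 ± 4.19 FPKM in Aged-TBI and 82.1 ± 16.03 FPKM in Aged-CON, and 98.8 ± 4.65 FPKM in Young-TBI and 80.6 ± 5.75 FPKM in Young-CON (SD, n = 3 each, as for all means below), a log2 difference of 0.33 ± 0.11 in aged and 0.29 ± 0.11 in young marrow (SE). Mcm2 averaged 92.3 ± 5.20 FPKM in Aged-TBI and 71.7 ± 16.9 FPKM in Aged-CON, and 79.01 ± 6.77 FPKM in Young-TBI and 73.1 ± 9.27 FPKM in Young-CON. Mcm3, whose groups did not overlap in either injury comparison, averaged 94.7 ± 1.04 FPKM in Aged-TBI and 77.1 ± 13.8 FPKM in Aged-CON, and 90.98 ± 6.42 FPKM in Young-TBI and 76.7 ± 6.70 FPKM in Young-CON. Its difference of 0.24 ± 0.11 in young marrow had an unadjusted p under 0.05 and an adjusted p from limma of 0.241. Mcm4 averaged 66.8 ± 2.51 FPKM in Aged-TBI and 53.4 ± 11.4 FPKM in Aged-CON, and 61.9 ± 3.72 FPKM in Young-TBI and 54.8 ± 4.60 FPKM in Young-CON. Mcm6 averaged 129 ± 2.46 FPKM in Aged-TBI and 107 ± 18.98 FPKM in Aged-CON, and 119 ± 7.45 FPKM in Young-TBI and 109.7 ± 8.25 FPKM in Young-CON. Mcm7 averaged 149 ± 5.12 FPKM in Aged-TBI and 119.5 ± 28.2 FPKM in Aged-CON, and 139.9 ± 14.4 FPKM in Young-TBI and 121 ± 8.75 FPKM in Young-CON. In all 6 subunits the mean was highest in Aged-TBI and next highest in Young-TBI.

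Cdc6, which helps to load the helicase onto origins, measured 29.3, 32.3 and 32.9 FPKM in Aged-TBI, against 29.1, 18.2 and 18.3 FPKM in Aged-CON, and 26.6, 27.5 and 21.4 FPKM in Young-TBI, against 23.4, 17.002 and 22.6 FPKM in Young-CON. Every Aged-TBI value lay above every Aged-CON value, with Aged-CON 1 just below Aged-TBI 1. Cdc6 averaged 31.5 ± 1.92 FPKM in Aged-TBI and 21.9 ± 6.27 FPKM in Aged-CON, and 25.2 ± 3.28 FPKM in Young-TBI and 21.0003 ± 3.48 FPKM in Young-CON, a log2 difference of 0.54 ± 0.17 in aged and 0.26 ± 0.17 in young marrow. Cdt1, the other loading factor, averaged 56.3 ± 1.14 FPKM in Aged-TBI and 46.2 ± 12.2 FPKM in Aged-CON, and 56.7 ± 3.64 FPKM in Young-TBI and 47.2 ± 2.95 FPKM in Young-CON. Its highest sample was Aged-CON 1, and its Young-TBI values all lay above Young-CON. Of the genes that activate the loaded helicase, Cdc45 averaged 34.8 ± 1.1501 FPKM in Aged-TBI and 29.6 ± 4.43 FPKM in Aged-CON, and 34.8 ± 1.37 FPKM in Young-TBI and 29.9 ± 3.24 FPKM in Young-CON. Gins2, a subunit of the GINS complex, averaged 23.4 ± 0.696 FPKM in Aged-TBI and 20.6 ± 4.61 FPKM in Aged-CON, and 23.7 ± 1.89 FPKM in Young-TBI and 19.8 ± 0.713 FPKM in Young-CON. The differences with injury were 0.23 ± 0.10 in aged and 0.22 ± 0.10 in young marrow for Cdc45, and 0.19 ± 0.12 in aged and 0.24 ± 0.12 in young marrow for Gins2.

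Pcna, the sliding clamp of the replication fork, was among the most abundant members, at 344, 379 and 348 FPKM in Aged-TBI, against 331, 251 and 236 FPKM in Aged-CON, and 325, 336 and 293 FPKM in Young-TBI, against 315, 252 and 299 FPKM in Young-CON. Every Aged-TBI value lay above every Aged-CON and every Young-TBI value. Pcna averaged 357 ± 19.03 FPKM in Aged-TBI and 273 ± 50.9 FPKM in Aged-CON, and 318 ± 22.3 FPKM in Young-TBI and 288 ± 32.9 FPKM in Young-CON, a log2 difference of 0.40 ± 0.12 in aged and 0.14 ± 0.12 in young marrow. Uhrf1, which brings the maintenance DNA methyltransferase to newly copied DNA, measured 77.7, 82.1 and 84.5 FPKM in Aged-TBI, against 80.1, 58.5 and 56.3 FPKM in Aged-CON, and 81.4, 83.4 and 73.4 FPKM in Young-TBI, against 78.6, 67.9 and 77.6 FPKM in Young-CON. Its groups overlapped in all of these comparisons, and Aged-CON 2 and 3 were the lowest samples. Uhrf1 averaged 81.4 ± 3.46 FPKM in Aged-TBI and 64.999 ± 13.1 FPKM in Aged-CON, and 79.4 ± 5.28 FPKM in Young-TBI and 74.7 ± 5.89 FPKM in Young-CON. Chaf1a, a subunit of the assembly factor that places histones behind the fork, averaged 33.7 ± 0.789 FPKM in Aged-TBI and 28.5 ± 5.42 FPKM in Aged-CON, and 33.5 ± 2.50 FPKM in Young-TBI and 28.9 ± 1.58 FPKM in Young-CON. All 3 Young-TBI values of Chaf1a lay above Young-CON, and the difference was 0.20 ± 0.11 in young and 0.25 ± 0.11 in aged marrow.

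The genes of nucleotide supply had a median log2 difference of 0.43 in aged and 0.22 in young marrow. Rrm2, the regulated subunit of ribonucleotide reductase, measured 261, 291 and 271 FPKM in Aged-TBI, against 242, 164 and 160.3 FPKM in Aged-CON, and 230.0, 227 and 203 FPKM in Young-TBI, against 218, 158 and 197 FPKM in Young-CON. Every Aged-TBI value lay above the values of the other 3 groups. Rrm2 averaged 274 ± 15.3 FPKM in Aged-TBI and 189 ± 45.97 FPKM in Aged-CON, and 220.0 ± 14.9 FPKM in Young-TBI and 191 ± 30.6 FPKM in Young-CON, with differences of 0.56 ± 0.15 in aged and 0.21 ± 0.15 in young marrow. Rrm1, the large subunit, averaged 129.7 ± 3.91 FPKM in Aged-TBI and 101 ± 24.1 FPKM in Aged-CON, and 114 ± 10.2 FPKM in Young-TBI and 97.4 ± 14.5 FPKM in Young-CON. Tk1, which salvages thymidine, measured 117, 115 and 124 FPKM in Aged-TBI, against 112, 73.2 and 75.5 FPKM in Aged-CON, and 113, 111 and 92.7 FPKM in Young-TBI, against 98.4, 73.9 and 81.9 FPKM in Young-CON. Its 3 Aged-TBI values lay above all others, with Young-TBI 1 and Aged-CON 1 just below. Tk1 averaged 119 ± 4.35 FPKM in Aged-TBI and 86.998 ± 21.97 FPKM in Aged-CON, and 106 ± 11.1 FPKM in Young-TBI and 84.7 ± 12.5 FPKM in Young-CON, and had the largest difference of the 44 in young marrow, 0.32 ± 0.15, beside 0.47 ± 0.15 in aged marrow. Tyms, thymidylate synthase, averaged 22.6 ± 0.591 FPKM in Aged-TBI and 17.2 ± 2.80 FPKM in Aged-CON, and 20.6 ± 1.40 FPKM in Young-TBI and 17.8 ± 2.06 FPKM in Young-CON.

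Ccne1, cyclin E1, which activates Cdk2 at the entry to S phase, measured 43.6, 49.7 and 47.5 FPKM in Aged-TBI, against 43.3, 24.2 and 25.3 FPKM in Aged-CON, and 36.3, 39.97 and 31.9 FPKM in Young-TBI, against 36.1, 23.4 and 30.9 FPKM in Young-CON. Its Aged-TBI values were the 3 highest, but Aged-CON 1 lay only just below them, and the lowest was Young-CON 2. Ccne1 averaged 46.9 ± 3.09 FPKM in Aged-TBI and 30.9 ± 10.7 FPKM in Aged-CON, and 36.05 ± 4.06 FPKM in Young-TBI and 30.1 ± 6.41 FPKM in Young-CON, with the largest difference of the 44 in aged marrow, 0.63 ± 0.20 (adjusted p from limma 0.124), and 0.27 ± 0.20 in young marrow. Ccne2, cyclin E2, averaged 11.2 ± 1.33 FPKM in Aged-TBI and 7.86 ± 1.22 FPKM in Aged-CON, and 9.27 ± 0.246 FPKM in Young-TBI and 7.91 ± 1.74 FPKM in Young-CON. E2f1, an activating E2F factor, measured 24.8, 22.4 and 24.8 FPKM in Aged-TBI, against 22.5, 15.97 and 17.3 FPKM in Aged-CON, and 23.5, 21.7 and 19.3 FPKM in Young-TBI, against 22.4, 17.7 and 20.6 FPKM in Young-CON. Its groups overlapped in each of these comparisons. E2f1 averaged 24.02 ± 1.39 FPKM in Aged-TBI and 18.6 ± 3.48 FPKM in Aged-CON, and 21.5 ± 2.07 FPKM in Young-TBI and 20.2 ± 2.33 FPKM in Young-CON. E2f8, an atypical E2F that represses transcription, measured 79.1, 80.02 and 74.7 FPKM in Aged-TBI, against 68.98, 51.7 and 51.5 FPKM in Aged-CON, and 67.7, 68.8 and 60.5 FPKM in Young-TBI, against 61.2, 49.8 and 62.3 FPKM in Young-CON. Every Aged-TBI value lay above the values of the other 3 groups. E2f8 averaged 77.9 ± 2.85 FPKM in Aged-TBI and 57.4 ± 10.02 FPKM in Aged-CON, and 65.7 ± 4.55 FPKM in Young-TBI and 57.8 ± 6.90 FPKM in Young-CON, with differences of 0.45 ± 0.12 in aged and 0.19 ± 0.12 in young marrow.

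**Figure D3:**
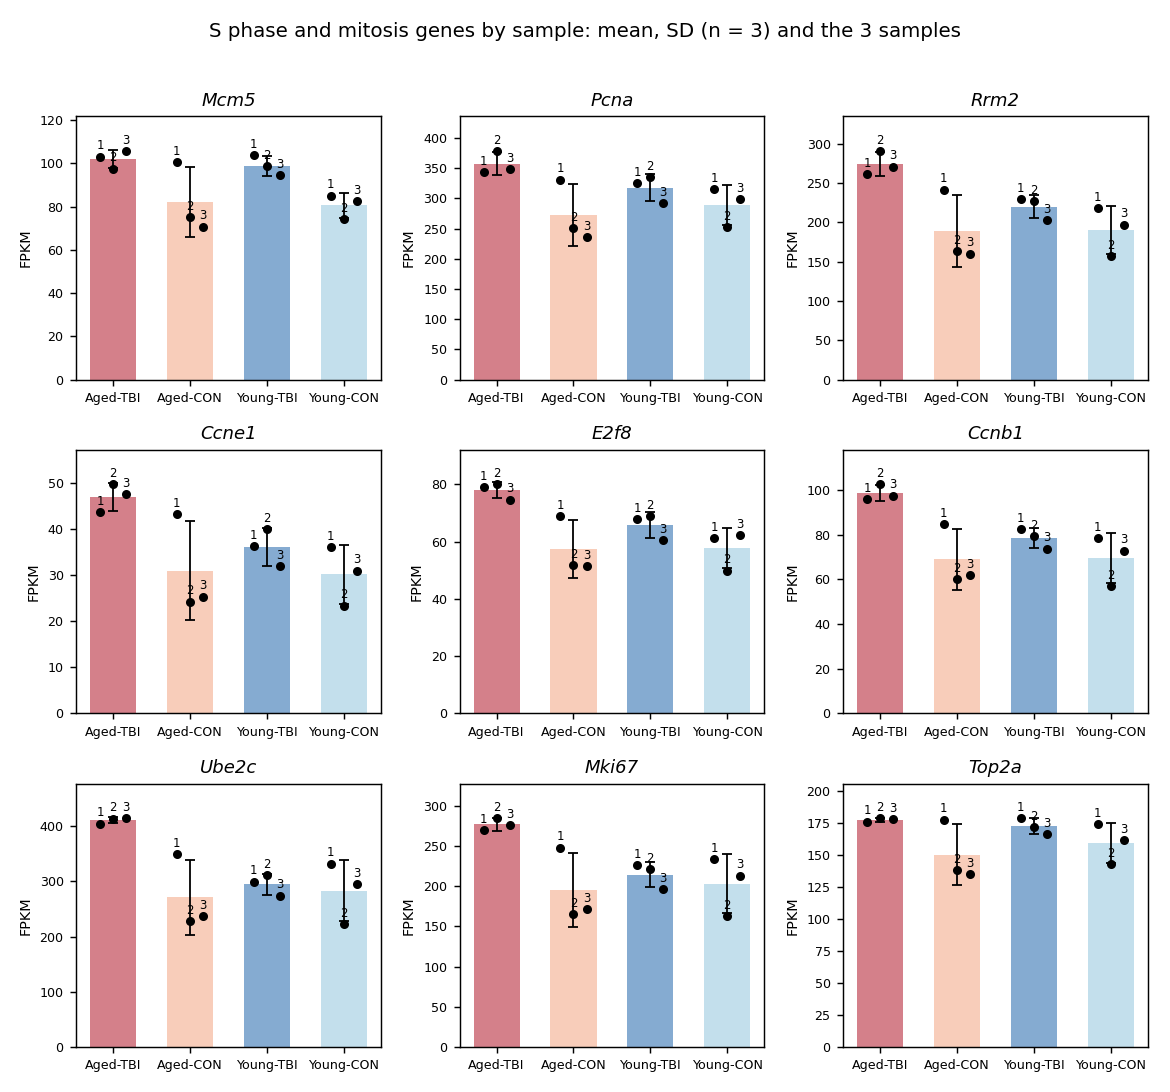
FPKM of 9 of the genes in the 4 groups, with a bar for the mean, an error bar for the SD (n = 3) and a numbered point for each sample. In each panel Aged-CON 2, Aged-CON 3 and Young-CON 2 are the lowest points. The Ube2c points of Aged-TBI lie at 405 to 415 FPKM, above those of the other 3 groups.

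Among the genes of mitosis, Ccnb1, cyclin B1, the partner of Cdk1 at mitotic entry, measured 95.9, 102 and 97.5 FPKM in Aged-TBI, against 84.6, 60.2 and 61.8 FPKM in Aged-CON, and 82.3, 79.2 and 73.7 FPKM in Young-TBI, against 78.6, 57.1 and 72.9 FPKM in Young-CON. Every Aged-TBI value lay above the values of the other 3 groups, and the young groups overlapped. Ccnb1 averaged 98.6 ± 3.46 FPKM in Aged-TBI and 68.9 ± 13.7 FPKM in Aged-CON, and 78.4 ± 4.35 FPKM in Young-TBI and 69.5 ± 11.1 FPKM in Young-CON, with differences of 0.53 ± 0.13 in aged (adjusted p from limma 0.103) and 0.18 ± 0.13 in young marrow. Ccnb2, cyclin B2, averaged 149 ± 5.20 FPKM in Aged-TBI and 110.3 ± 23.3 FPKM in Aged-CON, and 122 ± 6.26 FPKM in Young-TBI and 112 ± 13.4 FPKM in Young-CON. Ccna2, cyclin A2, which acts in S phase and at mitotic entry, averaged 140.5 ± 5.91 FPKM in Aged-TBI and 101 ± 23.1 FPKM in Aged-CON, and 116 ± 7.02 FPKM in Young-TBI and 106 ± 17.4 FPKM in Young-CON. Cdk1, the kinase itself, measured 58.4, 62.4 and 60.6 FPKM in Aged-TBI, against 60.1, 40.9 and 45.2 FPKM in Aged-CON, and 53.8, 56.5 and 49.9 FPKM in Young-TBI, against 56.6, 42.2 and 50.1 FPKM in Young-CON. Aged-CON 1 lay within the Aged-TBI range, and Aged-TBI lay above Young-TBI throughout. Cdk1 averaged 60.5 ± 2.02 FPKM in Aged-TBI and 48.7 ± 10.1 FPKM in Aged-CON, and 53.4 ± 3.30 FPKM in Young-TBI and 49.6 ± 7.18 FPKM in Young-CON, with differences of 0.32 ± 0.13 in aged and 0.11 ± 0.13 in young marrow.

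Aurkb, the kinase of the chromosomal passenger complex, measured 75.7, 72.1 and 75.05 FPKM in Aged-TBI, against 76.4, 58.2 and 61.1 FPKM in Aged-CON, and 78.1, 74.9 and 67.997 FPKM in Young-TBI, against 73.6, 57.5 and 69.7 FPKM in Young-CON. Its groups overlapped in every comparison, and its highest values were Young-TBI 1 and Aged-CON 1. Aurkb averaged 74.3 ± 1.95 FPKM in Aged-TBI and 65.2 ± 9.75 FPKM in Aged-CON, and 73.7 ± 5.15 FPKM in Young-TBI and 66.95 ± 8.41 FPKM in Young-CON, with differences of 0.19 ± 0.11 in aged and 0.14 ± 0.11 in young marrow. Birc5, survivin, a partner of Aurkb in that complex, measured 60.8, 68.6 and 66.4 FPKM in Aged-TBI, against 64.05, 40.5 and 39.6 FPKM in Aged-CON, and 53.8, 59.1 and 52.8 FPKM in Young-TBI, against 58.98, 40.1 and 54.8 FPKM in Young-CON. Aged-CON 1 lay within the range of Aged-TBI, and all Aged-TBI values lay above Young-TBI. Birc5 averaged 65.3 ± 4.01 FPKM in Aged-TBI and 48.03 ± 13.9 FPKM in Aged-CON, and 55.2 ± 3.37 FPKM in Young-TBI and 51.3 ± 9.92 FPKM in Young-CON, with differences of 0.47 ± 0.17 in aged and 0.12 ± 0.17 in young marrow. Aurka, the kinase of spindle poles, averaged 59.6 ± 3.54 FPKM in Aged-TBI and 44.1 ± 9.88 FPKM in Aged-CON, and 54.1 ± 3.64 FPKM in Young-TBI and 44.98 ± 9.84 FPKM in Young-CON. Tpx2, which activates Aurka on the spindle, averaged 60.2 ± 1.79 FPKM in Aged-TBI and 47.5 ± 8.19 FPKM in Aged-CON, and 54.6 ± 1.43 FPKM in Young-TBI and 50.3 ± 6.24 FPKM in Young-CON. Plk1, polo-like kinase 1, averaged 76.9 ± 4.04 FPKM in Aged-TBI and 64.3 ± 10.8 FPKM in Aged-CON, and 74.3 ± 7.46 FPKM in Young-TBI and 63.7 ± 7.95 FPKM in Young-CON, with differences of 0.27 ± 0.12 in aged and 0.22 ± 0.12 in young marrow.

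Ube2c, the ubiquitin-conjugating enzyme of the anaphase-promoting complex, had the highest mean of the 44 in Aged-TBI, while Pcna had the higher mean in the other 3 groups. Ube2c measured 405, 414 and 415 FPKM in Aged-TBI, against 350.0, 228 and 236 FPKM in Aged-CON, and 299, 311 and 274 FPKM in Young-TBI, against 332, 223 and 295 FPKM in Young-CON. The 3 Aged-TBI values lay above all other samples, while in young marrow the injured values lay inside the range of the controls. Ube2c averaged 411 ± 5.62 FPKM in Aged-TBI and 271 ± 68.2 FPKM in Aged-CON, and 295 ± 18.9 FPKM in Young-TBI and 283 ± 55.6 FPKM in Young-CON, with differences of 0.63 ± 0.16 in aged (adjusted p from limma 0.105) and 0.08 ± 0.16 in young marrow. Cdc20, which activates the complex, measured 90.2, 96.5 and 99.7 FPKM in Aged-TBI, against 90.7, 70.3 and 71.6 FPKM in Aged-CON, and 96.4, 87.3 and 91.1 FPKM in Young-TBI, against 87.5, 75.2 and 75.9 FPKM in Young-CON. Aged-CON 1 lay inside the Aged-TBI range, and the young groups overlapped by the values of Young-TBI 2 and Young-CON 1. Cdc20 averaged 95.4 ± 4.82 FPKM in Aged-TBI and 77.5 ± 11.5 FPKM in Aged-CON, and 91.6 ± 4.57 FPKM in Young-TBI and 79.5 ± 6.91 FPKM in Young-CON. Of the spindle checkpoint kinases, Bub1 averaged 22.4 ± 0.876 FPKM in Aged-TBI and 18.7 ± 4.11 FPKM in Aged-CON, and 22.4 ± 0.952 FPKM in Young-TBI and 19.5 ± 1.75 FPKM in Young-CON. Bub1b, BubR1, measured 49.7, 46.7 and 48.3 FPKM in Aged-TBI, against 48.3, 38.2 and 38.6 FPKM in Aged-CON, and 52.9, 50.9 and 52.1 FPKM in Young-TBI, against 46.4, 40.3 and 45.7 FPKM in Young-CON. Young-TBI was the highest group here, above Young-CON and above Aged-TBI without overlap. Bub1b averaged 48.2 ± 1.47 FPKM in Aged-TBI and 41.7 ± 5.72 FPKM in Aged-CON, and 51.97 ± 1.004 FPKM in Young-TBI and 44.1 ± 3.35 FPKM in Young-CON, with differences of 0.21 ± 0.09 in aged and 0.23 ± 0.09 in young marrow, and of -0.11 ± 0.09 between Aged-TBI and Young-TBI, the lowest of the 44.

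Cenpe, the kinesin of the kinetochore, measured 28.6, 29.9 and 27.5 FPKM in Aged-TBI, against 25.3, 18.97 and 18.5 FPKM in Aged-CON, and 25.8, 25.8 and 23.8 FPKM in Young-TBI, against 24.4, 19.97 and 22.7 FPKM in Young-CON. Aged-TBI lay above Aged-CON and above Young-TBI without overlap. Cenpe averaged 28.7 ± 1.17 FPKM in Aged-TBI and 20.9 ± 3.79 FPKM in Aged-CON, and 25.1 ± 1.16 FPKM in Young-TBI and 22.3 ± 2.21 FPKM in Young-CON, with differences of 0.45 ± 0.11 in aged (adjusted p from limma 0.0999, the smallest of the set in that comparison) and 0.17 ± 0.11 in young marrow. Cenpa, the histone H3 variant that marks centromeres, averaged 119 ± 2.26 FPKM in Aged-TBI and 87.5 ± 16.9 FPKM in Aged-CON, and 100.1 ± 2.43 FPKM in Young-TBI and 92.4 ± 8.86 FPKM in Young-CON. Cenpf, a kinetochore protein, averaged 25.5 ± 1.21 FPKM in Aged-TBI and 18.5 ± 4.09 FPKM in Aged-CON, and 20.8 ± 1.62 FPKM in Young-TBI and 20.7 ± 3.18 FPKM in Young-CON. Cenpf had the smallest difference of the 44 in young marrow, 0.01 ± 0.14, beside 0.47 ± 0.14 in aged marrow. Without Aged-CON 1 the aged difference was 0.59 ± 0.08 for Cenpe (adjusted p from limma 0.00338) and 0.61 ± 0.07 for Cenpa (0.00338).

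In all 5 motors and midzone proteins of the spindle, as in the 3 centromere genes, Aged-TBI and Aged-CON did not overlap. Kif11, the kinesin that separates the spindle poles, averaged 82.1 ± 1.39 FPKM in Aged-TBI and 62.99 ± 10.1 FPKM in Aged-CON, and 74.8 ± 2.43 FPKM in Young-TBI and 67.8 ± 6.72 FPKM in Young-CON. Kif20a, a kinesin of the midzone, averaged 29.1 ± 0.314 FPKM in Aged-TBI and 23.9 ± 3.25 FPKM in Aged-CON, and 27.9 ± 2.80 FPKM in Young-TBI and 23.8 ± 2.69 FPKM in Young-CON. Kif23, the motor of the centralspindlin complex, averaged 56.2 ± 1.31 FPKM in Aged-TBI and 44.99 ± 5.18 FPKM in Aged-CON, and 51.6 ± 2.62 FPKM in Young-TBI and 46.8 ± 2.42 FPKM in Young-CON. Its difference of 0.32 ± 0.08 in aged marrow had an adjusted p from limma of 0.103. Prc1, which bundles midzone microtubules, averaged 83.8 ± 4.43 FPKM in Aged-TBI and 62.9 ± 13.5 FPKM in Aged-CON, and 74.1 ± 6.63 FPKM in Young-TBI and 65.9 ± 9.23 FPKM in Young-CON. Nusap1, which binds spindle microtubules, averaged 89.5 ± 7.22 FPKM in Aged-TBI and 61.4 ± 13.9 FPKM in Aged-CON, and 67.3 ± 4.99 FPKM in Young-TBI and 65.5 ± 12.1 FPKM in Young-CON. Nusap1 had differences of 0.56 ± 0.16 in aged and 0.05 ± 0.16 in young marrow.

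Mki67, the Ki-67 protein that coats mitotic chromosomes and is widely used as a marker of dividing cells, measured 269.9, 285 and 276 FPKM in Aged-TBI, against 248, 165 and 172 FPKM in Aged-CON, and 226, 221 and 196 FPKM in Young-TBI, against 233, 162 and 213 FPKM in Young-CON. Every Aged-TBI value lay above the values of the other 3 groups, and the 3 Young-TBI values lay inside the range of Young-CON. Mki67 averaged 277 ± 7.62 FPKM in Aged-TBI and 195 ± 46.2 FPKM in Aged-CON, and 214 ± 15.9 FPKM in Young-TBI and 203 ± 36.6 FPKM in Young-CON, with differences of 0.53 ± 0.16 in aged (adjusted p from limma 0.114) and 0.09 ± 0.16 in young marrow. Top2a, the topoisomerase that untangles sister chromosomes, measured 176, 179 and 178 FPKM in Aged-TBI, against 177, 138 and 135 FPKM in Aged-CON, and 179, 171 and 166 FPKM in Young-TBI, against 174, 143 and 161 FPKM in Young-CON. Aged-CON 1 and Young-TBI 1 stood at the level of Aged-TBI, and the groups overlapped in each comparison. Top2a averaged 177 ± 1.49 FPKM in Aged-TBI and 150.0 ± 23.7 FPKM in Aged-CON, and 172 ± 6.25 FPKM in Young-TBI and 159 ± 15.6 FPKM in Young-CON, with differences of 0.25 ± 0.10 in aged and 0.12 ± 0.10 in young marrow.

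The cell cycle genes followed the erythroid genes sample by sample within the groups. The erythroid list held 25 genes of red cell precursors, such as Klf1, Gata1, Epor, Tfrc, Alas2 and Slc4a1, none of which is among the 44. In each of the 4 groups the sample with the lowest erythroid mean also had the lowest mean of the cell cycle genes. Across the 12 samples the mean of the 44 genes had a Pearson's r of 0.855 and a Spearman's rho of 0.846 with the erythroid mean, given as a description since the samples share groups and libraries. It was 0.799 without Aged-TBI 2 and 3, the samples farthest from the median of the erythroid mean, and 0.970 after the group means were removed. Ube2c (0.962) and Mki67 (0.951) had the highest r of the single genes.

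**Figure D4:**
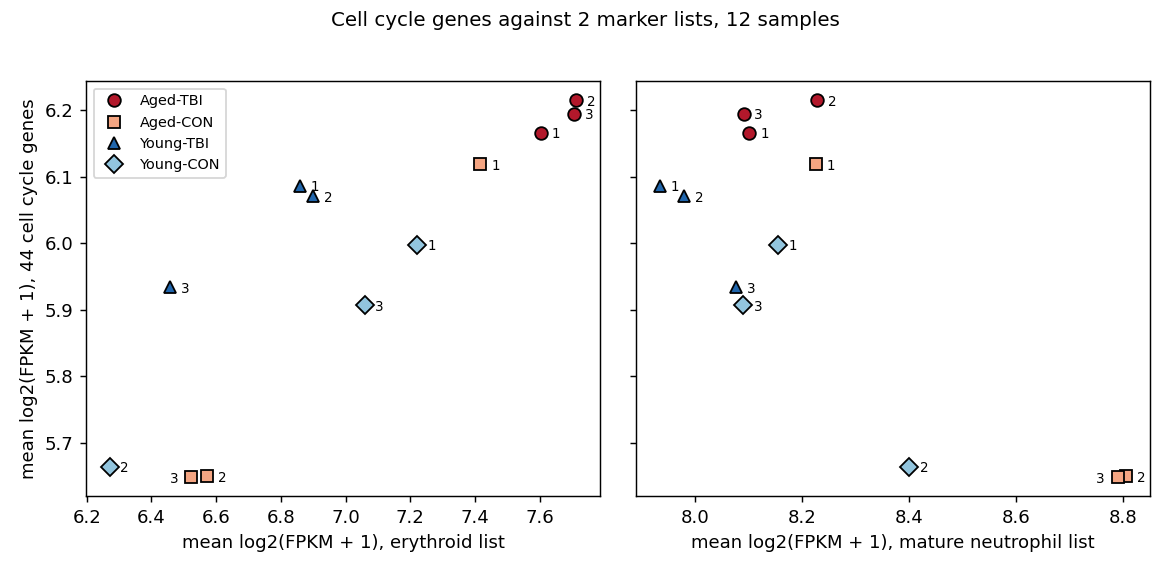
Mean of log2(FPKM + 1) over the 44 cell cycle genes (vertical axis, log2 units) against the mean over 25 erythroid genes (left) and over 16 mature neutrophil genes (right), with a numbered point for each of the 12 samples. On the left Young-TBI 1 and 2, at 6.86 and 6.90, lie above Young-CON 3, at 7.06. On the right Aged-CON 2 and 3 stand apart at 8.81 and 8.79.

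The slope on the erythroid mean was fitted beside the 4 group means, and limma called it above 0 for 42 of the 44 genes. Of the 11742 genes outside the erythroid list, 12.5% were called above 0. All 44 slopes of the cell cycle genes were positive. The slopes had a median of 0.40 log2 units per log2 unit of the erythroid mean and ran from 0.19 to 0.73, beside a median of 0.01 over all genes tested. They were alike in the 2 phases, with medians of 0.40 in S phase and 0.39 in mitosis. Ccne1 had the steepest slope, 0.73 ± 0.08 (SE, adjusted p from limma 7.75e-05), followed by Birc5 at 0.63 ± 0.07, Cdc6 at 0.63 ± 0.07, Ube2c at 0.60 ± 0.05 and Mki67 at 0.57 ± 0.05. The genes of nucleotide supply had the highest median of the roles, 0.52. Cdc45 (0.25 ± 0.08, adjusted p 0.051) and Kif23 (0.19 ± 0.07, adjusted p 0.0789) were the 2 genes that limma did not call. Genes with and without an E2F match had median slopes of 0.41 and 0.41, and genes with and without a CHR match of 0.44 and 0.39. The 29 genes with a CCAAT match had a median slope of 0.39, and the 8 without one of 0.54.

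**Figure D5:**
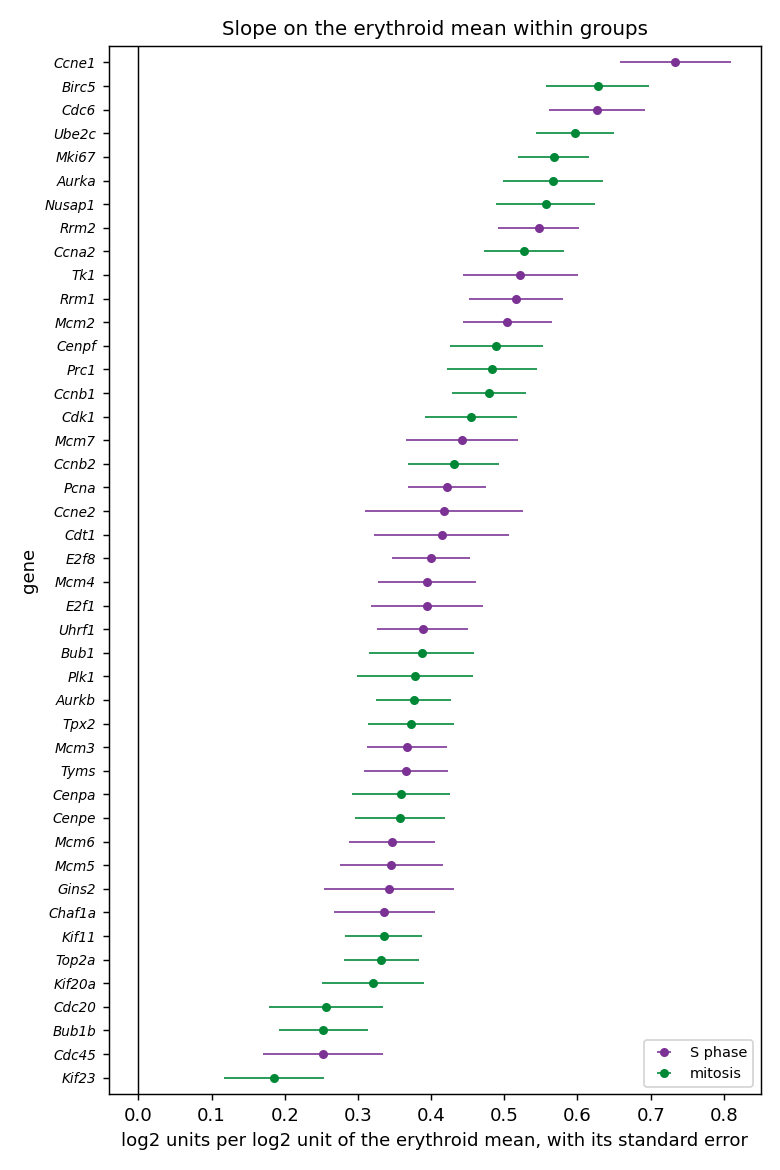
Slope of log2(FPKM + 1) on the erythroid mean, beside the 4 group means, for each of the 44 genes with its standard error, S phase genes in purple and mitosis genes in green. The slopes run from 0.19 (Kif23) to 0.73 (Ccne1), with S phase genes from 0.25 and mitosis genes up to 0.63.

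The calls of the slope rested on 2 libraries, Aged-CON 1 and Young-CON 2. Without Aged-CON 1, 27 of the 44 genes were called above 0 (4.22% of all genes tested) and the median slope was 0.33. Without Young-CON 2, 41 were called (11.5%) with a median of 0.49. Without both, limma called 0 of the 44, 21 were above 0 at an unadjusted p under 0.05, 42 were positive, and the median slope was 0.37.

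Mature neutrophil genes, a list of 16 genes such as Cxcr2, Csf3r, Mmp8, S100a8 and S100a9 whose slope was added after the data were seen, ran opposite to the cell cycle genes. The slope on their mean was below 0 for all 44 (-1.33 to -0.38), and limma called it below 0 for 42, where 12.6% of all genes tested were called below 0, with a median of -0.77. Without Aged-CON 1 the call was lost for all 44 in limma, and 32 were below 0 before adjustment (p under 0.05), around a median of -0.75. Without both Aged-CON 1 and Young-CON 2, the median was -0.25 and 1 gene was below 0 at an unadjusted p under 0.05. Across the 12 samples, group differences included, the erythroid and mature neutrophil means had an r of -0.431 with each other, and FPKM is a relative scale. Both slopes rest on differences within groups, which this r does not isolate. Aged-CON 1 had the highest erythroid mean of its group, 7.42 against 6.57 and 6.52, and the lowest mature neutrophil mean, 8.23. Young-CON 2 and Young-TBI 3 had the lowest erythroid and the highest mature neutrophil mean of their groups. Aged-TBI 2 had the highest of both in its group. Mature neutrophil genes were highest in Aged-CON 2 and 3, at 8.81 and 8.79, where the cell cycle genes were lowest. Across the 12 samples the mean of the 44 genes had a Pearson's r of -0.774 with the mature neutrophil mean. By rank the relation was weaker, with a Spearman's rho of -0.364. The part of each list in the values of the other was not tested.

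The slope on the primary granule genes of neutrophil progenitors was called for 0 of the 44 by limma, 0 passed an unadjusted p of 0.05, and the median was -0.51 (-1.24 to 0.13), with 0 calls among all 11756 genes tested. The slope on the B cell progenitor genes was likewise called for 0 of the 44, 0 passed before adjustment, and the median was 0.04 (-0.19 to 0.26). Within groups the primary granule mean varied little, with SDs of 0.01 to 0.16, so its fit says little about how the genes follow that lineage. The SDs were 0.19 to 0.25 for B cell progenitor genes, 0.07 to 0.33 for mature neutrophil genes and 0.06 to 0.51 for erythroid genes. With 3 samples per group, the absence of calls does not show that the genes do not follow B cell progenitors. Between groups, the B cell progenitor mean was 2.25, 2.26 and 2.59 in Aged-TBI, against 2.79, 2.50 and 2.86 in Aged-CON, and 3.68, 4.06 and 3.83 in Young-TBI, against 4.57, 4.81 and 5.06 in Young-CON, while the cell cycle genes did not follow that order.

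The genes outside the set whose values were most like the mean of the 44 across the 12 samples included 8 of the other S phase and mitosis lists among the first 15. These 15 were, in order, Fen1, Brca1, Ncapd3, Anln, Rfwd3, Clspn, Cdca3, Cbx5, Kif4, Spag5, Slbp, Mybl2, Stil, Hmmr and Dek, with Pearson's r from 0.990 to 0.974. Fen1, the flap endonuclease of lagging strand synthesis, averaged 77.5 FPKM in Aged-TBI and 58.001 FPKM in Aged-CON, and 66.2 FPKM in Young-TBI and 58.2 FPKM in Young-CON. Brca1 averaged 15.6 FPKM in Aged-TBI and 11.5 FPKM in Aged-CON, and 13.8 FPKM in Young-TBI and 12.4 FPKM in Young-CON. Slbp, which binds the stem-loop of histone mRNA, averaged 116 FPKM in Aged-TBI and 88.9 FPKM in Aged-CON, and 100.3 FPKM in Young-TBI and 91.6 FPKM in Young-CON. In each of the 3 the order of the group means was Aged-TBI, Young-TBI, Young-CON and Aged-CON.

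Of 40 other S phase genes, 39 were positive after injury in aged and 36 in young marrow, with medians of 0.28 and 0.12 and 0 called in either by limma (25 and 5 higher at an unadjusted p under 0.05). Of 46 other mitosis genes, 45 were positive in aged and 44 in young marrow, with medians of 0.32 and 0.15, and 0 and 1 were called. The 1 called was Melk, a mitotic kinase, higher by 0.34 ± 0.09 in Young-TBI (adjusted p from limma 0.0487).  Pttg1, securin, averaged 15.98 FPKM in Aged-TBI and 14.1 FPKM in Aged-CON, and 28.7 FPKM in Young-TBI and 35.7 FPKM in Young-CON, and was lower in Aged-CON than in Young-CON, with a log2 difference of -1.30 ± 0.17 (adjusted p from limma 0.000838), and in Aged-TBI than in Young-TBI, with -0.78 ± 0.17 (0.0189). Cep55, a protein of the midbody, was lower in Aged-TBI than in Young-TBI, with -0.56 ± 0.08 (0.00393). E2f2, an activating E2F factor, was higher in Aged-TBI than in Young-TBI by 0.42 ± 0.11 (0.0375).

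Of 13 tested cyclins, kinases and inhibitors of G1, 9 were positive in aged and 8 in young marrow, with medians of 0.13 and 0.02. Cdkn1b, the inhibitor p27, averaged 83.9 FPKM in Aged-TBI and 70.4 FPKM in Aged-CON, and 65.5 FPKM in Young-TBI and 83.1 FPKM in Young-CON. It was lower in Young-TBI than in Young-CON, with a log2 difference of -0.34 ± 0.08 (adjusted p from limma 0.0262) and higher in Aged-TBI than in Young-TBI by 0.35 ± 0.08 (0.017). Cdkn1a, the inhibitor p21, averaged 4.91 FPKM in Aged-TBI and 4.32 FPKM in Aged-CON, and 8.02 FPKM in Young-TBI and 5.81 FPKM in Young-CON, and was lower in Aged-TBI than in Young-TBI, with -0.60 ± 0.11 (0.0077).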

How the data were processed

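Per the labels' protocols, TRIzol was used for RNA and a SMARTER kit for the libraries. The authors deposited FPKM per gene symbol for all 12 samples. R 4.3.3 and the builds GRCm38 and mm10 appear among the submitters' processing notes. Aligner and counter: not given in the sources used here. The filter kept 11767 genes that reached 1 FPKM in 3 or more of the 12 samples. Values were taken as log2(FPKM + 1), a scale that understates changes of low genes, and tested in limma 3.58.1 (R 4.3.3), two-sided, using group means and a variance trend, with Benjamini-Hochberg adjustment over all tested genes and a threshold of 0.05. The fit was tested on simulated data. Whole fragments were recovered for 11764 of the 11767 genes (tolerance 0.05), and 1 of the other 3 is not reported here. The 44 genes, the role lists and the marker lists were chosen with earlier results of these data known. Every member is named with its group means, a set list of genes is given by sample, and where fewer than 3 members were called the 3 with the smallest p are given as not called. Positions are of GENCODE M21 on GRCm38. Alternatives changed the pseudocount, filter, scaling, variance model, samples, covariates and pairing.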

Additional observations from a re-analysis of the deposited data

How the results depend on the processing

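For the 44 genes, 0 were called in each of the 5 comparisons under the pseudocounts of 0.1 and 5, both other filters, quantile and median ratio scaling, no variance trend, voom on recovered fragments and the replicate block. The replicate block gave 0 in all 5 comparisons, 33 for the erythroid slope and 28 for the mature neutrophil slope. Same-numbered samples correlated at -0.117 to 0.0613 after removal of group means. The labels used here state no pairing, and correlations over 3 samples per group cannot show that there was none. Leaving out each sample in turn gave 0 to 4 called genes for young injury, 0 to 44 for aged injury, 0 to 2 for age without injury, 0 to 6 for age after injury, 0 to 14 for the difference between the ages, 27 to 43 for the erythroid slope and 0 to 43 for the mature neutrophil slope. In the 5 comparisons the counts above 0 came without Aged-CON 1, and 1 for age after injury also came without Young-CON 2. In all 44 genes Aged-CON 1 was the highest aged control and Young-CON 2 the lowest young control. Leaving them out therefore shifts the differences with the controls by construction. With array weights the counts were 3 for young injury, 44 for aged injury, 5 (lower) for age without injury, 8 for age after injury and 19 for the difference. Without both Young-CON 2 and Aged-CON 1 they were 1, 44, 35 (lower), 16 and 36, and 0 for the erythroid and the mature neutrophil slope. With the erythroid covariate they were 27 for young injury, 1 (lower) for age without injury and 1 (lower) for age after injury; without Aged-CON 1 as well, 33 for young injury and 2 (lower) for age without injury; without Young-CON 2 as well, 17 for young injury and 4 (lower) for age after injury. The last 2 settings and the mature neutrophil covariate, with 8 higher for age without injury and 29 for age after injury, were chosen after seeing the data. Only the 2 groups compared gave 12 for age after injury. The cause of these shifts was not tested beyond the samples left out. The share of all tested genes also moved between settings. For aged injury it was 0.323% called in the main fit and 15.5% called higher with array weights. Counts whose share is not given in the sections above cannot be set against all tested genes. The 44 genes had 240 to 42528 fragments per gene and sample, and the part of depth in these results was not tested.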

Other observations

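Of the 11767 tested genes, 11764 had FPKM values that were whole multiples of the value of 1 fragment in all samples within a tolerance of 0.05. The 3 that were not include Kitl, stem cell factor, and Nlrp3, an inflammasome sensor. Kitl measured 94.4, 105 and 121 FPKM in Aged-TBI, against 34.1, 27.4 and 21.7 FPKM in Aged-CON, and 54.9, 72.04 and 65.6 FPKM in Young-TBI, against 19.6, 32.01 and 25.4 FPKM in Young-CON. All 44 cell cycle genes were whole. How the values of the 3 genes came to differ from the rest cannot be read from the table.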
